A study of Mus musculus with 8 samples.

Results

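The polyamine metabolism genes examined here are Odc1, Srm, Sms and Amd1, which encode enzymes of polyamine synthesis, Azin1, Oaz1 and Oaz2, which encode regulators of ornithine decarboxylase, and Sat1, Smox and Paox, which encode enzymes of polyamine back-conversion and oxidation. They were chosen by name. A probe counted for a gene when the manufacturer had designed it on a RefSeq transcript of that gene, and the gene was represented by its brightest probe among those with a signal well above background in 4 or more arrays. By this rule 9 of the 10 genes had a probe, with 18 probes in all out of the 55681 probes on the array that are not controls. Each of the 18 probes was well above background on all 8 arrays and none was saturated on any array. No probe was named by a RefSeq transcript of Amd1, which encodes adenosylmethionine decarboxylase.

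RNA came from the ventricles of 8 male C57BL\6 mice, 4 with myocardial infarction (MI) produced by ligation of a coronary artery and 4 that were sham-operated (sham mice), all killed 24 hours after surgery. The occlusion was permanent, and the labels name no transgene. By the methods of the study, mice were operated under isoflurane and received acipimox, a drug that lowers blood fatty acids, for imaging by FDG-PET before the hearts were taken, in both groups. Each mouse had 1 array (mouse SurePrint G3, 1 colour). Values are log2 signals after the spike-in normalization of the authors, so that 1 unit is a 2-fold difference in signal, and changes are MI minus sham. Signals of different probes have no common scale and are not compared with each other.

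Polyamines (putrescine, spermidine and spermine) are small positively charged molecules found in all cells, where they bind nucleic acids and are needed for protein synthesis and growth. Ornithine decarboxylase, encoded by Odc1, makes putrescine from ornithine. Spermidine synthase (Srm) and spermine synthase (Sms) then add aminopropyl groups that adenosylmethionine decarboxylase supplies. Antizymes, encoded by Oaz1 and Oaz2, bind ornithine decarboxylase and send it to the proteasome, and their translation is raised by polyamines through a ribosomal frameshift. The antizyme inhibitor Azin1 captures antizyme. In the other direction, the Sat1 enzyme acetylates spermidine and spermine, which Paox then oxidises in the peroxisome, while Smox oxidises spermine directly and releases hydrogen peroxide.

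To show the start regions of genes that differ in their response, the 250 bases before a transcript start are given 5′ to 3′ from the RefSeq promoter table (GRCm38.p6). They are shown for Odc1 and Smox, which were higher in MI, and for Oaz1, for which no difference was called. All lie on the plus strand, at chr12:17544623-17544872 for Odc1, chr2:131491612-131491861 for Smox and chr10:80826406-80826655 for Oaz1. The Odc1 and Smox windows end after the first annotated base of the gene (17544808 and 131491858), so they precede a later transcript start and reach into the gene. Capitals mark GC boxes (GGGCGG on either strand), the motif bound by Sp1.
Odc1: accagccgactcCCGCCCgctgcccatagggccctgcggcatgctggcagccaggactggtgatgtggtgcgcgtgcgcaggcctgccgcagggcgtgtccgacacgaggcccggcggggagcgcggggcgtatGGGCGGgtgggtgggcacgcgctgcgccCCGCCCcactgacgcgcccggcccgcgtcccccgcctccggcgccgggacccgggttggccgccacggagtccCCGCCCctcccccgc
Smox: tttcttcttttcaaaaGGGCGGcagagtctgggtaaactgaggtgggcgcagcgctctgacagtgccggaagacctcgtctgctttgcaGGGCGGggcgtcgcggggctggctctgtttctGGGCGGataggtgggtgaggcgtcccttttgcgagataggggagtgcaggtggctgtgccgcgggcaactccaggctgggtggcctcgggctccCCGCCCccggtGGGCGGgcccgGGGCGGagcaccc
Oaz1: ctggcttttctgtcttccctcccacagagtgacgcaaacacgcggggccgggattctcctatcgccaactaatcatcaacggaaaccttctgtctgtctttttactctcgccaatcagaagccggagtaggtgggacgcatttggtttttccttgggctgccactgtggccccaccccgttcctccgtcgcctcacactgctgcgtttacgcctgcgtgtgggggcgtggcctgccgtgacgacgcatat
The Odc1 window held 4 GC boxes and 80% G and C, the Smox window 6 GC boxes and 68% G and C, and the Oaz1 window 0 GC boxes and 58% G and C. Of all 32817 windows of this length in the table, 32.7% held a GC box. The E-box CACGTG (6.02% of windows), the AP-1 site TGANTCA (6.75%) and the cAMP response element TGACGTCA (1.55%), each searched on both strands, were in none of the 3 windows shown. The Oaz1 window held 1 CCAAT box (CCAAT, 33.8% of windows), and the Odc1 and Smox windows held 0. GC boxes were not confined to genes that were higher in MI. The Oaz2 window held 3, the Sat1 window 2, the 2 Paox windows 1 and 3, and the 2 Sms windows 0 and 4. The promoter table held no window for Srm or Azin1, which were also higher in MI.

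Of the 9 genes measured, 4 were called higher in MI and 0 lower by limma at a Benjamini-Hochberg adjusted p under 0.05. These were Srm, Smox, Azin1 and Odc1. Among all 34038 retained probes, 7.61% were called, 6.3% higher and 1.31% lower. Srm and Smox also passed the 2-fold threshold of the study, against 3.48% of all retained probes in either direction and 3.07% higher. In the same 4 genes every MI mouse lay above every sham mouse, which was the case for 8.46% of retained probes, and in 0 of the 9 genes did every MI mouse lie below every sham mouse (2.7% of retained probes). The median change of the 9 genes was 0.64, beside 0.12 for all retained probes. The whole array was therefore slightly shifted toward MI on this scale, and scaling each array to its 75th percentile moved the median of all probes by -0.14. Relative to the median of all probes, the changes were 1.5 for Srm, 0.98 for Smox, 0.82 for Azin1 and 0.81 for Odc1.

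**Figure D1:**
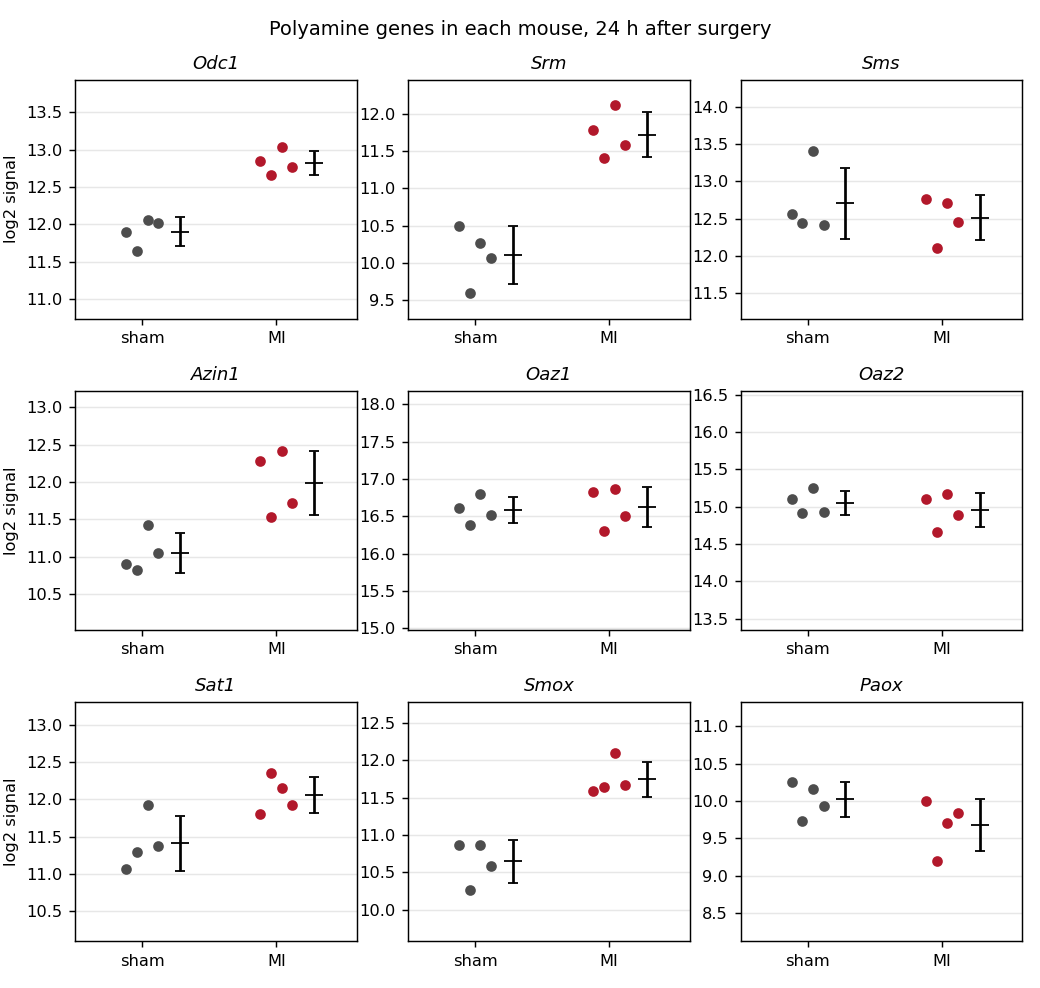
Log2 signal of the brightest probe of each of the 9 measured polyamine genes in each mouse, with 4 sham and 4 MI mice as points and the mean ± SD beside them; every panel spans the same number of log2 units. The groups are apart for Odc1, Srm, Azin1 and Smox and overlap for Sms, Oaz1, Oaz2, Sat1 and Paox.

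Srm, which encodes the enzyme that makes spermidine from putrescine, had the largest change of the 9 genes. Its log2 signal was 11.78, 11.41, 12.12 and 11.58 in MI mice 1 to 4 and 10.50, 9.60, 10.27 and 10.07 in sham mice 1 to 4. The lowest MI mouse lay 0.91 above the highest sham mouse. The means were 11.72 ± 0.30 (SD, n = 4) and 10.11 ± 0.39 (n = 4), a log2 difference of 1.61 ± 0.23 (SE) or 3.06-fold (limma, adjusted p = 1.86e-05). The exact two-sided permutation test gave p = 0.0286, the smallest p that 4 mice against 4 allow. A second Srm probe gave a change of 1.46 and was also called at over 2-fold.

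Odc1, the gene of the first enzyme of the pathway, was 12.85, 12.66, 13.04 and 12.76 in MI mice and 11.90, 11.64, 12.06 and 12.01 in sham mice. The MI mice all lay above the sham mice. The means were 12.83 ± 0.16 and 11.90 ± 0.19 (SD, n = 4 each), and the log2 difference was 0.92 ± 0.20 (SE), or 1.90-fold (limma, adjusted p = 0.00372; exact permutation test, p = 0.0286). This is just under the 2-fold threshold. The other 2 Odc1 probes were called at over 2-fold, and over its 3 probes the change ranged from 0.92 to 1.31. The mean of the 3 probes was 1.15.

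Sms, whose product turns spermidine into spermine, was not called. Its log2 signal was 12.76, 12.11, 12.71 and 12.45 in MI mice and 12.56, 12.43, 13.41 and 12.41 in sham mice. The groups overlapped, and sham mouse 3 stood above the 7 other mice. The difference was -0.19, with a 95% interval from -0.68 to 0.29 (limma, adjusted p = 0.714), which allows a change of up to 0.68 downward. Without sham mouse 3 it was 0.04 (adjusted p = 0.961). The 3 Sms probes ranged from -0.26 to -0.16 and 0 of them were called.

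Amd1 itself was not measured, but Amd2, a near-identical copy of it, had 3 probes, and Amd2 was singled out after its values were seen. In the RefSeq table the 50 bases after the starts of Amd1 and Amd2 share an identical run of 48 bases, while the longest run shared by the 250 bases before the starts is 7 bases, so a probe for one of them may also read RNA of the other. The brightest Amd2 probe was 13.06 ± 0.27 in MI mice and 13.10 ± 0.24 in sham mice (SD, n = 4 each). The difference was -0.04, with a 95% interval from -0.48 to 0.40 (limma, adjusted p = 0.944), and the 3 probes ranged from -0.04 to 0.00.

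Among the regulators of ornithine decarboxylase, Azin1 was higher in MI and neither antizyme gene was called. Azin1 was 12.28, 11.53, 12.42 and 11.72 in MI mice and 10.90, 10.82, 11.42 and 11.05 in sham mice. The groups did not overlap, but MI mouse 2 lay only 0.11 above sham mouse 3. The means were 11.99 ± 0.43 and 11.05 ± 0.27 (SD, n = 4 each), and the difference was 0.94 ± 0.23 (SE), or 1.92-fold (limma, adjusted p = 0.00926; exact permutation test, p = 0.0286). All 3 Azin1 probes were called, with changes from 0.82 to 0.94. With no filter on detection, which tests 55681 probes, the same change had an adjusted p of 0.108.

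Oaz1 encodes the main antizyme, and its values were nearly equal in the groups. They were 16.82, 16.30, 16.86 and 16.50 in MI mice and 16.62, 16.39, 16.80 and 16.52 in sham mice. The difference was 0.04, with a 95% interval from -0.39 to 0.47 (limma, adjusted p = 0.946), and it was -0.09 under 75th percentile scaling and -0.01 under quantile normalization. No direction can be given for it. A change beyond 1.38-fold upward lies outside the interval.

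Oaz2 was 15.10, 14.66, 15.17 and 14.89 in MI mice and 15.11, 14.92, 15.25 and 14.92 in sham mice. The groups overlapped. The difference was -0.10, with a 95% interval from -0.52 to 0.33 (limma, adjusted p = 0.852). The second of its 2 probes gave 0.45 and was not called either, so the probes differed in direction.

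**Figure D2:**
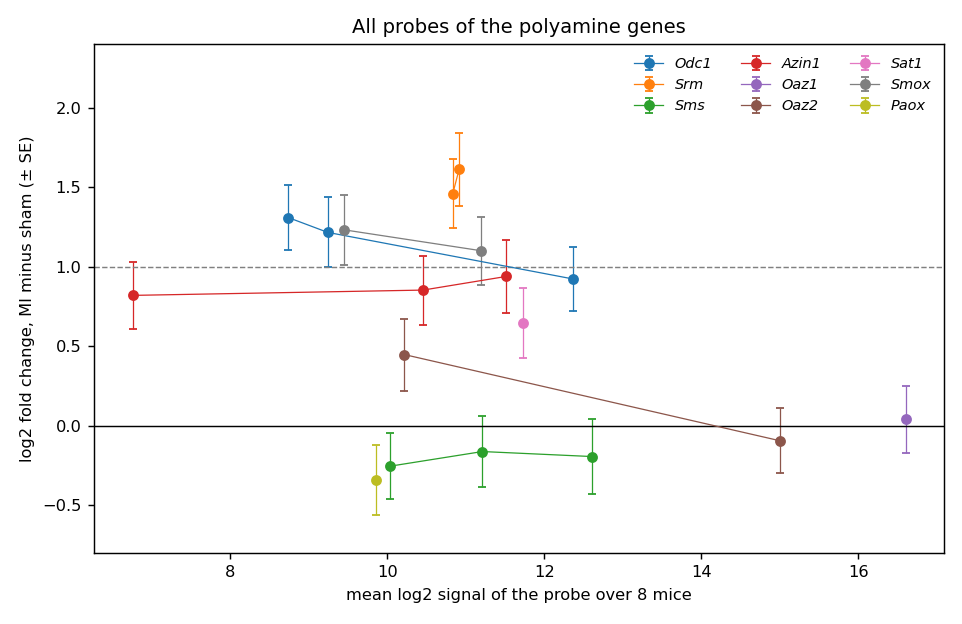
Log2 fold change (MI minus sham, ± SE) of all 18 probes of the 9 genes against the mean log2 signal of the probe over 8 mice, with a line joining probes of the same gene; the dashed line marks 2-fold. The probes of Odc1, Srm, Azin1 and Smox all lie above 0, those of Sms all lie below 0, and the 2 Oaz2 probes lie on either side of 0.

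Of the enzymes that break down or convert polyamines, Smox was higher in MI. Its log2 signal was 11.59, 11.64, 12.09 and 11.67 in MI mice and 10.87, 10.27, 10.87 and 10.59 in sham mice. The groups did not overlap, and MI mouse 3 stood above the other MI mice. The means were 11.75 ± 0.23 and 10.65 ± 0.29 (SD, n = 4 each), and the difference was 1.1 ± 0.21 (SE), or 2.14-fold (limma, adjusted p = 0.00106; exact permutation test, p = 0.0286). The second Smox probe gave 1.23 and was also called at over 2-fold. Smox was called in every analysis that left out 1 mouse, but its change was 0.98 without MI mouse 3 and 0.97 without sham mouse 2, just under 2-fold, and 0.98 under 75th percentile scaling (adjusted p = 0.00304).

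Sat1, the acetylating enzyme that starts back-conversion, was 11.80, 12.35, 12.15 and 11.92 in MI mice and 11.06, 11.29, 11.92 and 11.37 in sham mice. Sham-operated mouse 3 lay above MI mouse 1 and level with MI mouse 4, and the other sham mice lay below all MI mice. The means were 12.05 ± 0.24 and 11.41 ± 0.37 (SD, n = 4 each). The difference of 0.64 ± 0.22 (SE) did not pass the threshold (limma, adjusted p = 0.0779; exact permutation test, p = 0.0857). It was 0.90 among the 4 mice of array row 1 and 0.39 among the 4 mice of array row 2. Without sham mouse 3 it was 0.81 and passed (limma, adjusted p = 0.0239).

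Paox, which oxidises the acetylated polyamines, was 10.004, 9.19, 9.70 and 9.83 in MI mice and 10.26, 9.74, 10.16 and 9.94 in sham mice. The groups overlapped on this scale. The difference was -0.34, with a 95% interval from -0.79 to 0.11 (limma, adjusted p = 0.422). Under 75th percentile scaling it was -0.47, every MI mouse lay below every sham mouse, and the gene was called lower (limma, adjusted p = 0.0237), where 8.84% of retained probes were called lower. The direction was the same on both scales, and the call depended on the scale.

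The array-wide level of each mouse moved with these values. The median log2 signal of the retained probes was 7.96, 7.42, 8.001 and 7.79 in MI mice 1 to 4 and 7.81, 7.38, 7.80 and 7.57 in sham mice 1 to 4. MI mouse 2 and sham mouse 2 were the lowest of their groups, and MI mouse 2 also had the lowest value among the MI mice for 7 of the 9 genes, all but Sat1 and Smox. The standard errors of the 9 genes lay between 0.20 and 0.24 with the spike-in normalization and between 0.11 and 0.26 under 75th percentile scaling. Under that scaling 4 of the 9 genes were called higher and 1 lower, against 8.7% and 8.84% of retained probes, and Srm was the 1 gene over 2-fold, against 4.24% of probes in either direction, 3.06% higher and 1.18% lower. Every MI mouse lay above every sham mouse in 4 genes (11% of retained probes) and below in 2, Oaz2 and Paox (12.7%).

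**Figure D3:**
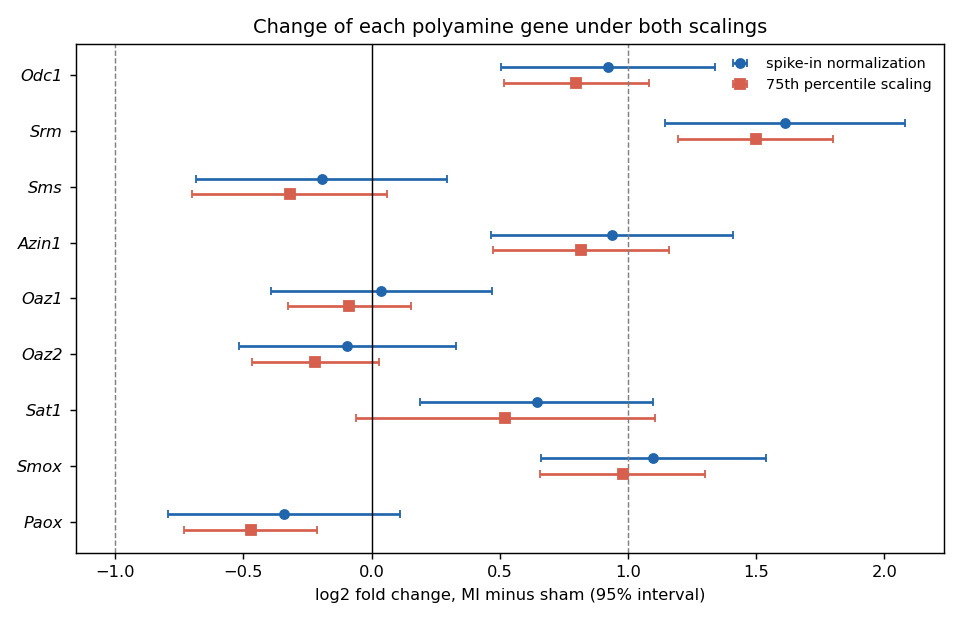
Log2 fold change (MI minus sham) of the 9 genes with its 95% interval from limma (4 MI and 4 sham mice), with the spike-in normalization as circles and 75th percentile scaling as squares; dashed lines mark 2-fold. Srm, Smox, Azin1 and Odc1 lie to the right of 0 on both scales, and Paox is the gene whose interval excludes 0 on the second scale alone.

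Differences between 2 genes within the same mouse do not depend on the scale given to its array. They show how the RNA signals of 2 genes moved against each other between the groups. No protein or polyamine was measured on the arrays, so the balance of the pathway itself was not tested. Srm minus Sms was -0.98, -0.70, -0.60 and -0.88 in MI mice and -2.06, -2.84, -3.14 and -2.35 in sham mice. The groups were far apart, and the spermidine synthase gene gained 1.81 ± 0.26 (SE of the difference in means) on the spermine synthase gene (exact permutation test, p = 0.0286). Odc1 minus Oaz1 was -3.98, -3.65, -3.82 and -3.74 in MI mice and -4.71, -4.75, -4.74 and -4.51 in sham mice. The decarboxylase gene thus gained 0.88 ± 0.09 (SE) on the gene of its main antizyme (exact permutation test, p = 0.0286). Azin1 minus Oaz2 rose by 1.03 ± 0.14 and Smox minus Paox by 1.44 ± 0.22 (SE), each with groups that did not overlap. Each of these pairs sets a called gene against an uncalled one, so its separation follows largely from the calls and is no separate support. The p of 0.0286 from the exact permutation test is the smallest possible here and was not adjusted over the 36 pairs compared. Oaz1 and Oaz2 differed from each other by little, 0.13 ± 0.04 (SE), although the MI mice again lay above all sham mice. Both differences with Oaz2 rest on its brightest probe, which changed by -0.10, while its second probe changed by 0.45. The change of Oaz1, 0.04, lay between those values, so the sign of Oaz1 minus Oaz2 depends on the probe. With the second probe, the gain of Azin1 on Oaz2 would be smaller.

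All 36 pairs of the 9 genes were compared in this way, and in 23 of them the MI and sham mice did not overlap. Over all pairs of genes on the array the share was 28.1%. Which genes were called follows from the same values, so the split by call is a description: the groups were apart in 16 of the 20 pairs of a called with an uncalled gene, in 2 of the 6 pairs of called genes and in 5 of the 10 pairs of uncalled genes. All 4 overlapping pairs of a called with an uncalled gene contained Sat1. Within the called genes, Srm exceeded Odc1 by 0.69 and Smox by 0.51 (exact permutation test, p = 0.0286 for each, not adjusted over pairs). Azin1 and Odc1 changed by nearly the same amount, with a difference of 0.02. These differences hold for the brightest probe of each gene and depend on that choice. Averaged over all probes of the gene, the change was 1.53 for Srm, 1.17 for Smox, 1.15 for Odc1 and 0.87 for Azin1.

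**Figure D4:**
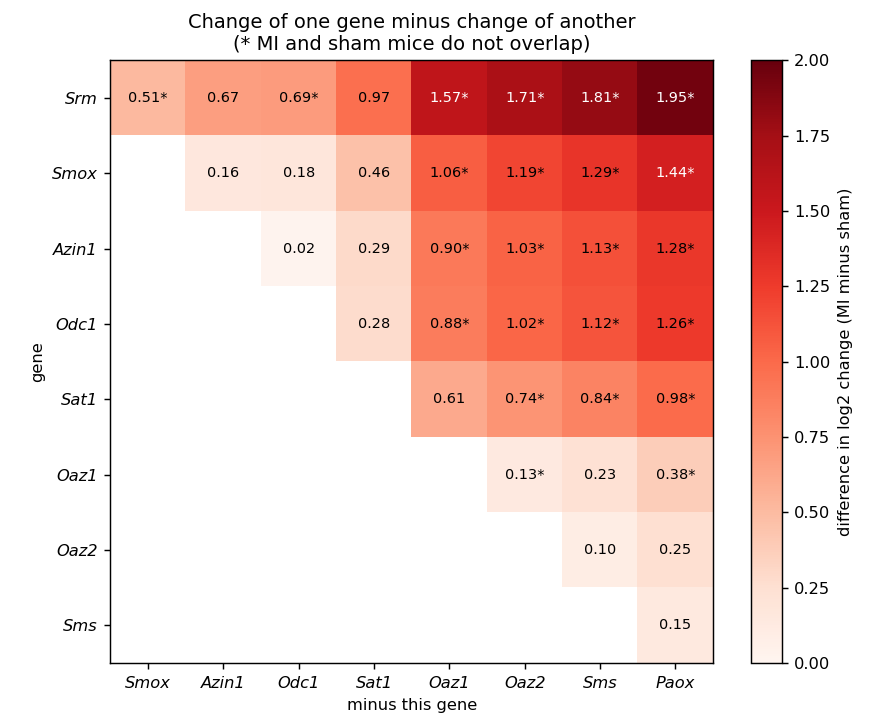
Difference in log2 change (MI minus sham) between each pair of the 9 polyamine genes, taken within each mouse, as the gene of the row minus the gene of the column; an asterisk marks pairs in which the 4 MI and 4 sham mice do not overlap. The rows of Srm, Smox, Azin1 and Odc1 hold the large values against Sms, Oaz1, Oaz2 and Paox.

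The 37 neighbouring genes of the pathway that were listed gave 31 genes with a retained probe, and 29 of them were well above background in all 8 mice. Of these 29 genes 3 were called higher in MI and 0 lower, beside 6.3% and 1.31% of all retained probes, and their median change was -0.04, beside 0.12. Under 75th percentile scaling 4 of the 29 were called higher and 5 lower, beside 8.7% and 8.84% of retained probes. The other 2 genes, Arg2 and Slc7a2, reached that level in 4 MI mice and only 1 sham mouse, so they passed the detection filter through the MI group and are given by their levels alone.

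The called neighbours lay in ornithine supply and transport. Arg1, an arginase, which makes ornithine from arginine, was 12.79 ± 0.46 in MI mice and 11.11 ± 0.42 in sham mice (SD, n = 4 each), a change of 1.67 ± 0.25 (SE; limma, adjusted p = 3.25e-05). The other arginase gene, Arg2, was 7.34 ± 0.41 in MI mice and 4.53 ± 0.51 in sham mice (SD, n = 4 each), the sham level lying mostly within background. The other 2 genes of this list, Agmat and Oat, were not called, with -0.18 and -0.05, and are named here after their values were seen, as are the transporters Slc3a2 and Atp13a3.

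Of the 8 transport genes well above background in all mice 2 were higher. Slc3a2, the heavy chain of several amino acid transporters, changed by 0.94 (adjusted p = 0.00998), and Atp13a3, a polyamine-transporting ATPase, by 0.80 (adjusted p = 0.0167). Slc3a2 lost its call without sham mouse 2 (adjusted p = 0.0559). Atp13a3 lost its call without MI mouse 3 (0.0777), sham mouse 2 (0.0669) or sham mouse 4 (0.0567). Slc7a2, a transporter of arginine and other cationic amino acids, was 5.70 ± 0.33 in MI mice and 4.61 ± 0.42 in sham mice (SD, n = 4 each), with the same limit as Arg2.

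The other groups held no called gene. Of the 3 retained paralogs of members 0 were called, and Azin2, an antizyme inhibitor, gave 0.29 (limma, adjusted p = 0.509). Of the 7 retained genes of S-adenosylmethionine supply and methylthioadenosine salvage 0 were called, and Mat2a, which makes S-adenosylmethionine, gave -0.04 (adjusted p = 0.948). In the hypusine pathway, in which spermidine modifies the translation factor eIF5A, 0 of 4 genes were called. Eif5a was 14.23 ± 0.27 in MI mice and 13.74 ± 0.19 in sham mice (SD, n = 4 each), every MI mouse above every sham mouse, with a change of 0.50 ± 0.21 (SE; limma, adjusted p = 0.171). It was called under 75th percentile scaling (0.37, adjusted p = 0.0331) and without MI mouse 2 (0.62, adjusted p = 0.0428). Of the 4 retained genes of amine oxidation 0 were called. Under 75th percentile scaling Maob (-0.56, limma, adjusted p = 0.0112) and Aoc3 (-0.45, limma, adjusted p = 0.0305) of this group were called lower. So were Sat2 of the paralogs, Apip of the salvage genes and Slc18b1 of the transport genes. These are the 5 genes called lower on that scale, beside 8.84% of retained probes, and are named after their values were seen.

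**Figure D5:**
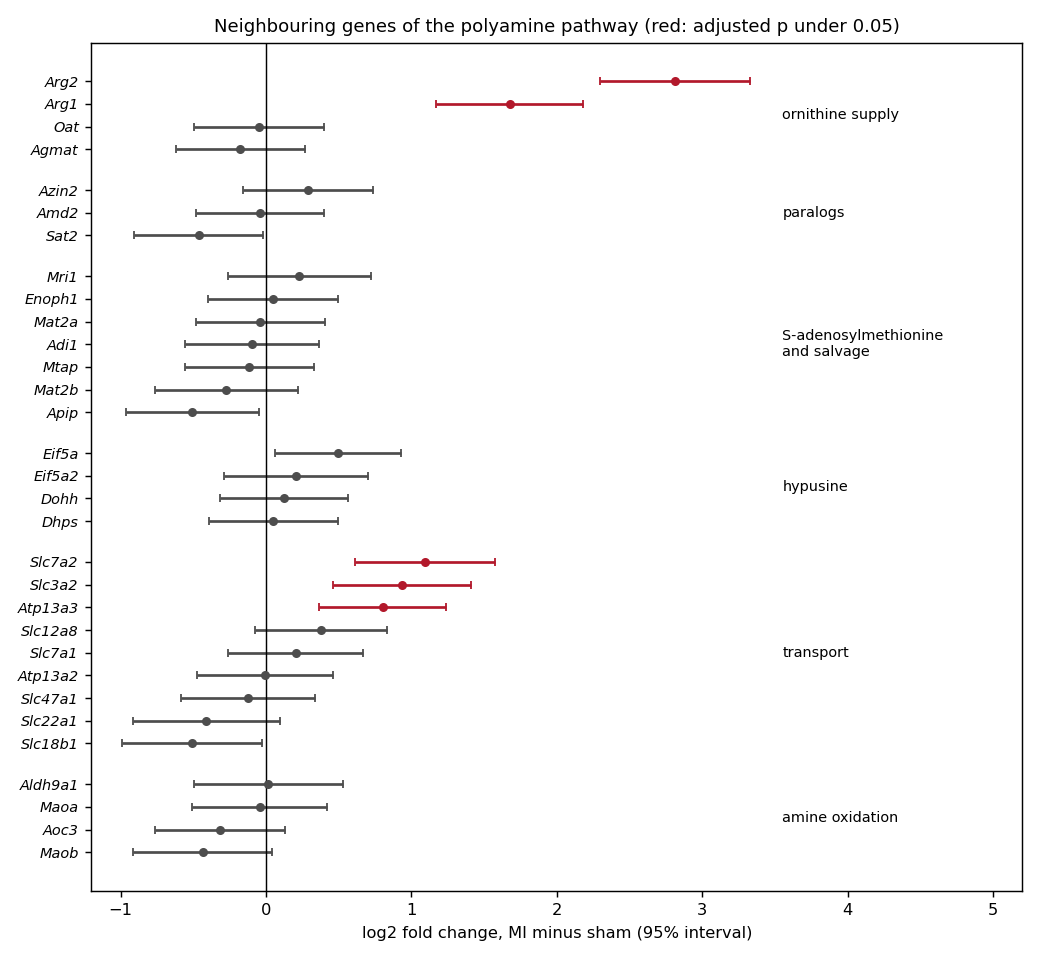
Log2 fold change (MI minus sham) with its 95% interval from limma for the 31 neighbouring pathway genes with a retained probe, grouped by role, with genes called at an adjusted p under 0.05 in red. The red points are Arg1, Slc3a2 and Atp13a3, together with Arg2 and Slc7a2, which were well above background in 1 sham mouse and whose position depends on values within background.

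Markers of heart muscle and of blood cells were read beside these values, since whole ventricles hold many cell types, and in such tissue fewer cells of a type and less RNA per cell cannot be told apart. The cardiomyocyte markers were bright in all mice and 0 of 8 were called. Under 75th percentile scaling 1 of them was called lower, Pln with -0.68 (limma, adjusted p = 0.00643), beside 8.84% of retained probes. The summed signal of the 8 markers (in units of 1000 after scaling, as for the sums that follow) was 1724 to 2571 in the MI group and 1840 to 2637 in the sham group. Because a sum adds probes without a common scale, its brightest probes set most of it, and sums are read between mice only. Actc1 and Myl2 changed by 0.29 and -0.08. Of 6 measured neutrophil markers 5 were higher at over 2-fold, and their summed signal was 204 to 316 in MI hearts against 61.3 to 80.2 in sham hearts. S100a9, a calprotectin subunit, changed by 2.79, and Csf3r, the marker not called, by 0.08. Each retained neutrophil marker was well above background in all 4 sham mice. Ly6g had no probe by the rule used, nor had Cd68 and Ly6c2 of the monocyte list. Their part in the polyamine gene values was not tested.

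Fewer markers of other cells were called. Of 6 monocyte and macrophage markers 2 were higher, with a summed signal of 15.4 to 21.8 after MI and 11.1 to 17.5 after sham surgery. Cd14 changed by 2.25 and Csf1r by -0.16. Of 7 fibroblast markers 0 were called (Dcn -0.38 and Col1a2 -0.44), with sums of 45.8 to 115 after MI and 88.3 to 143 after sham surgery. Of 6 endothelial markers 0 were called (Kdr -0.16 and Cdh5 0.17), with sums of 18.4 to 25.7 and 20.8 to 27.3. With 75th percentile scaling 1 of the 6 was called higher, Pecam1 with 0.53 (limma, adjusted p = 0.0389), beside 8.7% of retained probes. Of 5 smooth muscle and pericyte markers only Acta2 was higher, by 1.46, beside Tagln with -0.07. The sums, in which Acta2 was the brightest marker, were 29.5 to 50.2 after MI and 20.8 to 28.1 after sham surgery. On the 75th percentile scale Acta2 was again higher, and 1 of the 5 was called lower, Rgs5 with -0.46 (limma, adjusted p = 0.0236). Of 3 retained T cell markers 1 was higher, the brightest being Cd4 (0.18) and Cd3e (-0.12), and the sums were 4.84 to 8.89 and 4.60 to 9.87. Cd3g and Cd8a were not retained. Of 3 B cell markers 1 was called, Cd79b with 0.73 (limma, adjusted p = 0.0321), and 0 under 75th percentile scaling (Cd79b, adjusted p = 0.0863). Cd79a and Ms4a1 were each well above background in 3 MI mice and only 1 sham mouse, so they passed the detection filter mostly through the MI group. The sums, which include these values near background, were 0.167 to 0.254 in the MI group and 0.100 to 0.150 in the sham group. These lists were likewise not tested as a source of the changes.

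The genes whose log2 values over the 8 mice were most like those of Srm, among 15155 other genes, were Ppan, Ccnd1 and Klhl6, each with Pearson r = 0.997. Ccnd1 encodes cyclin D1 and Ppan a protein of ribosome production. For Smox they were Fam13b (0.997), Pfkp (0.996), a phosphofructokinase, and Sting1 (0.993). These 6 genes changed by 0.94 to 1.41. Such high values were common, with 451 genes above 0.95 for Srm and 393 for Smox, and the points share the 8 arrays, their scaling and the difference between the groups.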

How the data were processed

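Gene expression was measured on 8 one-colour arrays of 4 MI and 4 sham mice. The deposited intensities used here are the processed signal column written by Feature Extraction 11.0.1.1, per the file headers with background subtracted and spatial trends removed but no normalization between arrays. The deposited log2 values were made by the authors from these signals with limma and vsn, using spike-in probes. Scale and additive constant of each array were recovered from them and applied here to every spot (constants 3.16 to 19.6 signal units, beside a median retained signal of 201). A refit of the vsn model to the spike-in spots, with a separate implementation and not the vsn package, gave far larger constants and served as an alternative. Outlier spots were left out, spots of a probe averaged and control probes removed. Probes detected in 4 or more arrays were retained (34038 of 55681). A probe is well above background where the scanner software says so.

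Groups were compared by limma 3.58.1 (R 4.3.3), without covariates, with Benjamini-Hochberg adjustment over all retained probes. Exact permutation tests were two-sided (Python 3.11.15, numpy 2.4.6, scipy 1.17.1, pandas 2.3.3, matplotlib 3.10.9). Gene symbols and promoters came from RefSeq tables. The pathway list held ornithine supply, paralogs, S-adenosylmethionine supply and salvage, hypusine, transport and amine oxidation genes. Named were the 10 genes, the listed genes past an adjusted p of 0.05 and 2-fold with Arg1, Arg2, Mat2a, Eif5a and Azin2, the 2 brightest markers of each list and the 3 genes most like each member past 2-fold; any other name was chosen after its values were seen. One B cell marker is not reported here. The genes and lists were chosen with earlier results of these data known. Alternatives were other normalizations, background correction and detection filters, the authors' values, blocks for array row and replicate number, and each mouse left out. Significance analysis of microarrays, also in a separate implementation, was a further alternative. The number of arrays limits the precision.

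All 8 arrays lay on 1 slide, with 2 MI and 2 sham mice in each of 2 rows. Correlations between arrays of a group were 0.990 to 0.995 (MI) and 0.990 to 0.992 (sham), and 56.2% to 64.0% of spots were well above background.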

Additional observations from a re-analysis of the deposited data

Results flagged for a closer look

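In 2 of the 18 groups examined (9 genes, 4 mice each), the mouse at one end stood apart from the others by more than Dixon's 95% critical value for 4 samples, which chance exceeds in about 1 in 20 groups. For Sms this was sham mouse 3, with a log2 signal of 13.41 beside 12.41 to 12.56 in the other sham mice. For Smox it was MI mouse 3, with 12.09 beside 11.59 to 11.67 in the other MI mice.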

How the results depend on the processing

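With the spike-in normalization, 2590 probes were called at any fold, 2144 higher and 446 lower, and 1184 over 2-fold. The counts at any fold were 1271 with the vsn refit, 5973 (2963 higher, 3010 lower) under 75th percentile scaling, 6153 with quantile normalization, 6249 with normexp and 990 with no filter, and over 2-fold 333 with the vsn refit and 522 with normexp. Leaving out 1 mouse gave 1883 to 3213 and 1046 to 1461. Significance analysis of microarrays called 4 of the polyamine genes, 2 of them over 2-fold. Of the 33865 probes it tested, it called 1740 at any fold and 1057 over 2-fold.

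Of the 9 genes, 3 to 5 were called in every alternative. Beside them, the probes called ran from 990 of 55681 with no filter to 6249 of 34038 with normexp. Under 75th percentile scaling and normexp 1 gene was over 2-fold, Srm, beside 1444 and 522 probes. Leaving out 1 mouse gave 4 to 5, and 1 to 3 over 2-fold: Smox was under 2-fold without MI mouse 3 or sham mouse 2, and Azin1 over it without MI mouse 2 (1.09), MI mouse 4 (1.03) or sham mouse 3 (1.06). Srm, Smox and Odc1 were called in all 19 alternatives with a test, and Azin1 in 18. Paox was also called with quantile normalization (-0.46, adjusted p = 0.0232) and normexp (-0.43, adjusted p = 0.0144, limma).

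Oaz1 changed sign, to -0.086, -0.0063 and -0.053 under 75th percentile scaling, quantile normalization and normexp. Leaving out 1 mouse gave -0.041 to 0.15 for Oaz1, -0.17 to 0.0027 for Oaz2 and -0.29 to 0.040 for Sms. The mean of both Oaz2 probes was 0.18. The causes were not tested.

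Replicate numbers are shared by the groups, but the deviations of mice with the same number correlated at 0.238, 0.292, 0.143 and 0.0114, so not every pair deviated together, and 5 of the 8 mice correlated best with the mouse of their own number. The labels do not say that a number marks a shared day or batch, and no pairing was used. With a replicate block 4895 probes were called at any fold and 1155 over 2-fold, with 5 polyamine genes, Sat1 among them (adjusted p = 0.0327, limma).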
